A study of Mus musculus with 6 samples.

Results

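Interferon-stimulated genes are the genes that cells switch on when interferons bind their receptors. A list of 35 of them was followed by gene symbol through RNA sequencing counts of mouse mammary tumour cells. All 35 were found among 41795 features, and 33 had enough counts to be tested. The tumour cells came from MMTV-PyMT mice, whose full strain name in the labels is FVB/N-Tg(MMTV-PyVT)634Mul/J. All samples share the transgene of that strain, in which the promoter of mouse mammary tumour virus drives the middle T oncoprotein of polyoma virus in the mammary gland. There were 3 libraries of breast CSCs (cancer stem cells) in the activated state and 3 of the quiescent state. Quiescent CSCs are tumour cells able to renew themselves that rest outside the cell cycle. How the cells were collected or activated, the age of the mice, and whether each library is another animal or culture are not in the labels. The p-values therefore reflect the spread of these libraries alone, which may be technical.

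Type I interferons act through the receptor chains Ifnar1 and Ifnar2 and the kinases Jak1 and Tyk2. Signalling through them forms a factor complex that includes Stat2 and Irf9 and binds the interferon-stimulated response element (ISRE) in target promoters. Interferon gamma acts through Ifngr1, Ifngr2, Jak1 and Jak2 on promoters that hold the gamma-activated site (GAS), and switches on Irf1, guanylate-binding protein (Gbp) genes and immunity-related GTPase (Irg) genes. Many genes answer both kinds of interferon, so the division is one of degree. The members were therefore read as 27 type I-linked genes, 6 genes of the Gbp, Irg and Irf1 class (Gbp2, Gbp3, Gbp7, Igtp, Iigp1 and Irf1) and the 2 other factors Irf2 and Irf5.

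Library totals ran from 17842568 to 20510377 counts in activated and from 17785331 to 19145576 in quiescent CSCs. Levels are given as CPM, the scaled count relative to the library total. Fold changes are activated over quiescent on the log2 scale with their standard error (SE). Adjusted p comes from edgeR's quasi-likelihood test across 15223 genes, and a gene passed under 0.05. In bulk libraries fewer cells of a type and less RNA per cell cannot be told apart. All 10 listed epithelial markers were detected, with 4 higher and 3 lower in activated CSCs (70%, against 47.5% of all genes). Epcam was at 1171 ± 14.3 CPM in activated and 1594 ± 9.76 CPM in quiescent CSCs (SD, n = 3 each), while Krt19, named after its values were seen, was at 340.5 ± 2.45 CPM in activated and 126 ± 5.57 CPM in quiescent CSCs.

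The interferon-stimulated genes did not move as a block. Of the 33 tested members, 16 passed the test, 7 higher and 9 lower in activated CSCs. That is 48.5% of the tested members, near the 47.5% of all genes that passed in either direction, so the share called is not a result about these genes. Of all genes, 24.1% were called higher and 23.4% lower. No tested member had a fitted change of a log2 of 1 or more, while 10.1% of all genes had a fitted change of that size. The median log2 fold change was -0.04 over the members and -0.003 over all genes tested. In 18 of the 33 (54.5%) the libraries of the states did not overlap, against 55.9% of all genes.

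Among the called members, the largest decreases were in Oas3, Rsad2 and Ifit3, at 0.527, 0.613 and 0.69 times their level in quiescent CSCs. The largest increases were in Iigp1, an Irg gene, at 1.86-fold, in Zbp1, a sensor of unusual nucleic acid helices, at 1.48-fold, and in Ifi44 at 1.33-fold. The transcription factor genes split, with Irf1 and Irf7 higher and Irf2 and Irf5 lower in activated CSCs, while Stat2 and Irf9 did not pass. Irf7 and Irf5 each lost their call in 5 of 16 alternative settings of the test, while Irf1 and Irf2 kept theirs.

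**Figure D1:**
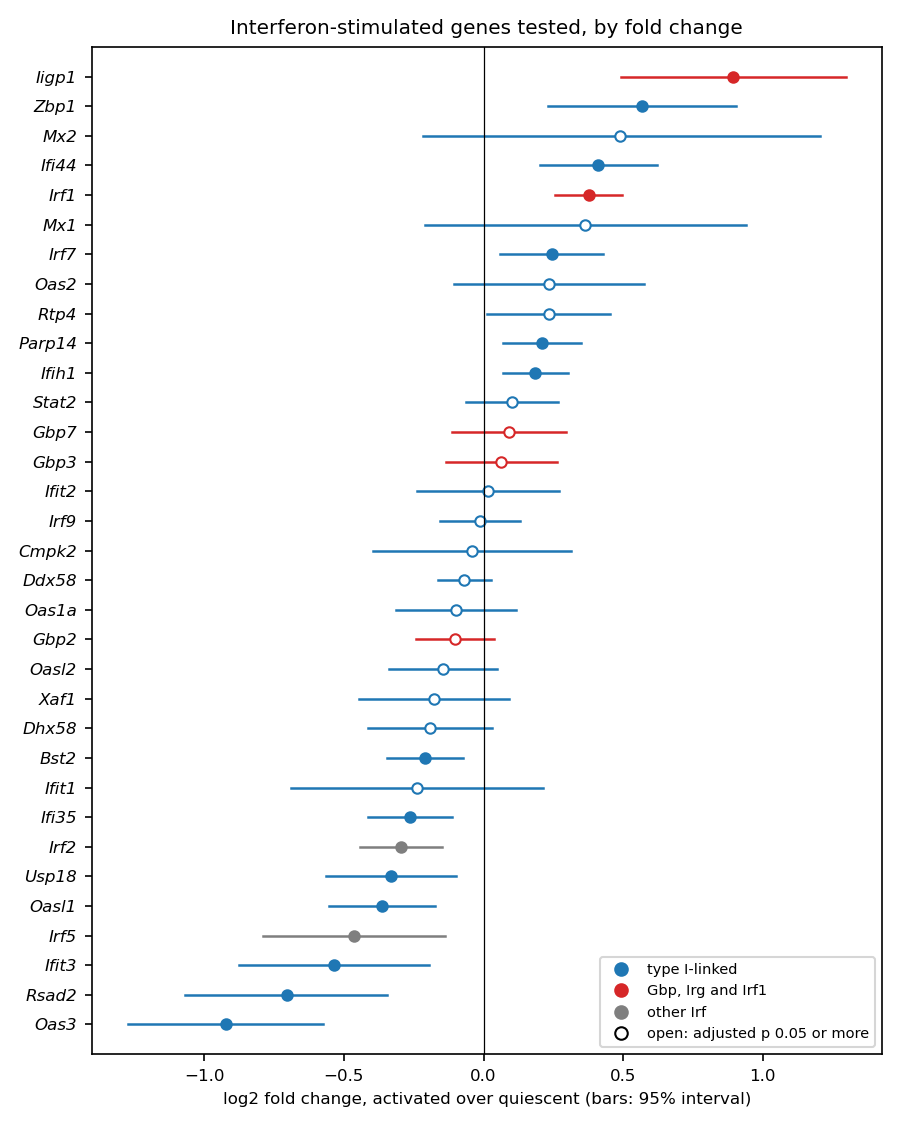
Log2 fold change, activated over quiescent CSCs, of the 33 tested members, with the 95% interval as a bar; filled points passed the test and colours give the class. The points run from -0.92 for Oas3 to 0.89 for Iigp1, and type I-linked genes lie on both sides of zero.

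Interferon genes themselves were barely detected. Of 21 ligand genes listed, 12 had any count, and all 21 were too low to test. Together they had 2, 3 and 3 counts in the activated libraries, against 6, 5 and 18 in the quiescent libraries. Ifnb1, the interferon beta gene, had 0 counts over the activated libraries and 4 in quiescent replicate 3 alone. Ifna13 had 0 counts in activated libraries and 4, 0 and 5 in quiescent libraries, and Ifne, an epithelial type I interferon, had 0 in activated and 0, 1 and 4 in quiescent libraries. Ifnz had 5 counts over the activated and 2 over the quiescent libraries, and Ifnab had 1 over the activated and 4 over the quiescent libraries. Single counts were seen for Ifna7 and Ifnk in activated, and for Ifna2, Ifna5, Ifna14, Ifnl2 and Ifnl3 in quiescent libraries. Ifng, the interferon gamma gene, had 0 counts in all 6 libraries. A count of 0 in a single library allows an expected count of up to 3 (95% bound), and 0 in every library allows less per library. Quiescent replicate 3 held 18 of the 29 counts of its state, and the difference between states was not tested.

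Receptor genes were expressed in both states. Of 9 receptor and kinase genes 2 rose and 2 fell (44.4%, against 47.5% of all genes). Ifnlr1, the specific chain of the interferon lambda receptor, rose, at 60.4 ± 0.773 CPM in activated and 36.3 ± 1.91 CPM in quiescent CSCs (log2 0.74, SE 0.05, adjusted p = 8e-09; SD, n = 3 each here and below). Its partner chain Il10rb fell (log2 -0.24, SE 0.05, adjusted p = 0.0008). Of the type I receptor, Ifnar1 fell, at 120.4 ± 1.35 CPM in activated and 140.5 ± 3.41 CPM in quiescent CSCs (log2 -0.22, SE 0.04, adjusted p = 0.00016), while Ifnar2 was at 80.6 ± 2.63 CPM in activated and 78.5 ± 2.12 CPM in quiescent CSCs and did not pass (adjusted p = 0.54). The interferon gamma receptor genes Ifngr1 and Ifngr2 did not pass, with 95% intervals of the fold of 0.858 to 1 and 0.927 to 1.06. Nor did the kinases Jak1 (adjusted p = 0.84) and Tyk2 (0.55), while Jak2 rose 1.15-fold (adjusted p = 0.0016).

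Among the sensors of viral RNA, 1 of the 3 genes of the RIG-I-like family passed. Ddx58, which encodes RIG-I, had 107, 99.4 and 99.9 CPM in the activated libraries, against 108, 108 and 106 CPM in the quiescent libraries. These values overlapped and the gene did not pass (log2 -0.07, SE 0.04, adjusted p = 0.22), with a 95% interval of the fold of 0.893 to 1.02. Ifih1, which encodes MDA5, a sensor of long double-stranded RNA, had 41.4, 39.4 and 41 CPM in the activated libraries, against 36.2, 35.1 and 35.8 CPM in the quiescent libraries. All activated libraries lay above all quiescent ones and it rose 1.14-fold (log2 0.18, SE 0.06, adjusted p = 0.011), a call that ended with DESeq2 (adjusted p = 0.067). Dhx58, which encodes LGP2, a regulator of the other two, had 8.95, 8.53 and 9.22 CPM in activated and 10.4, 9.56 and 10.5 CPM in quiescent libraries. Its states did not overlap, but it did not pass (log2 -0.19, SE 0.10, adjusted p = 0.15).

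Zbp1, whose protein binds left-handed helices and can trigger necroptosis, had 12.5, 7.77 and 9.85 CPM in the activated libraries, against 6.23, 6.49 and 7.56 CPM in the quiescent libraries. Activated replicate 1 was the highest, and the lowest activated library lay just above the highest quiescent one. Zbp1 rose 1.48-fold (log2 0.57, SE 0.16, adjusted p = 0.0079).

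The genes that link sensors to interferon genes held calls in both directions, as all genes did. Of 14 tested genes of this list 3 rose and 5 fell (57.1%, against 47.5% of all genes). Irf3, the factor that switches on Ifnb1, did not pass (adjusted p = 0.65). It was at 53 ± 1.2 CPM in activated and 54.1 ± 0.705 CPM in quiescent CSCs. Tmem173, which encodes STING, the adaptor of cytosolic DNA sensing, rose 1.43-fold (log2 0.52, SE 0.06, adjusted p = 1.6e-06), and Myd88, a Toll-like receptor adaptor, rose 1.24-fold (adjusted p = 0.00043). Ticam1, the adaptor of Tlr3, was called higher (log2 0.27, SE 0.09, adjusted p = 0.016), but not in DESeq2 (adjusted p = 0.069) or on dropping quiescent replicate 2 (0.073), activated replicate 2 (0.06) or activated replicate 3 (0.057). Ikbke, a kinase that activates Irf3 and Irf7, fell the most, at 31.7 ± 1.28 CPM in activated and 55.4 ± 4.73 CPM in quiescent CSCs (log2 -0.80, SE 0.07, adjusted p = 2.7e-08). Tlr3, an endosomal sensor of double-stranded RNA, was at 107 ± 8.52 CPM in activated and 134 ± 2.02 CPM in quiescent CSCs (log2 -0.32, SE 0.05, adjusted p = 6.3e-05), and Trim25, a ubiquitin ligase of the RIG-I pathway, at 115 ± 0.997 CPM in activated and 135 ± 2.92 CPM in quiescent CSCs (adjusted p = 8.4e-05), both lower in activated CSCs.

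The transcription factors of the response split by gene. Stat2 and Irf9, subunits of the factor that binds the ISRE, did not pass. Stat2 had 20.8, 19.9 and 21 CPM in activated and 20.2, 18.7 and 18.7 CPM in quiescent libraries (95% interval of the fold 0.957 to 1.2), and Irf9 had 35.6, 31.3 and 31.5 CPM in activated and 31.6, 33.6 and 34 CPM in quiescent libraries (interval 0.897 to 1.09). Irf7, which amplifies type I interferon production, had 19.9, 17.6 and 18.7 CPM in the activated libraries, against 16.5, 14.6 and 16.3 CPM in the quiescent libraries. The states did not overlap and Irf7 rose 1.18-fold (log2 0.24, SE 0.09, adjusted p = 0.03), but not in DESeq2 (adjusted p = 0.11) or on dropping quiescent replicate 2 (0.12), activated replicate 1 (0.08) or activated replicate 3 (0.068).

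Irf1, a target of the GAS and an activator of many genes of both classes, had 73, 68.2 and 69.5 CPM in the activated libraries, against 51.8, 52 and 58.5 CPM in the quiescent libraries. It rose 1.3-fold in activated CSCs, with all activated libraries above all quiescent ones (log2 0.38, SE 0.06, adjusted p = 4.1e-05). Irf2, which competes with Irf1 for the same sites, had 26.1, 30.4 and 29.3 CPM in the activated libraries, against 36.1, 35.1 and 34.2 CPM in the quiescent libraries. Irf2 fell, to 0.814 times the quiescent level, without overlap (log2 -0.30, SE 0.07, adjusted p = 0.0021). Irf5, which acts below Toll-like receptors and is best known in myeloid and B cells, had 3.75, 3.94 and 4.73 CPM in the activated libraries, against 5.45, 5.35 and 6.35 CPM in the quiescent libraries. It fell (log2 -0.46, SE 0.15, adjusted p = 0.02), and missed the threshold in DESeq2 (adjusted p = 0.096) and on dropping quiescent replicate 3 (0.097), activated replicate 1 (0.061) or activated replicate 2 (0.071). Irf5 overlaps the gene Tnpo3 on the opposite strand over 6.63% of its span, and Tnpo3 had 11052 counts against 553 for Irf5, so reads may be shared. Whether counting used the strand is not stated in the labels or the file.

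**Figure D2:**
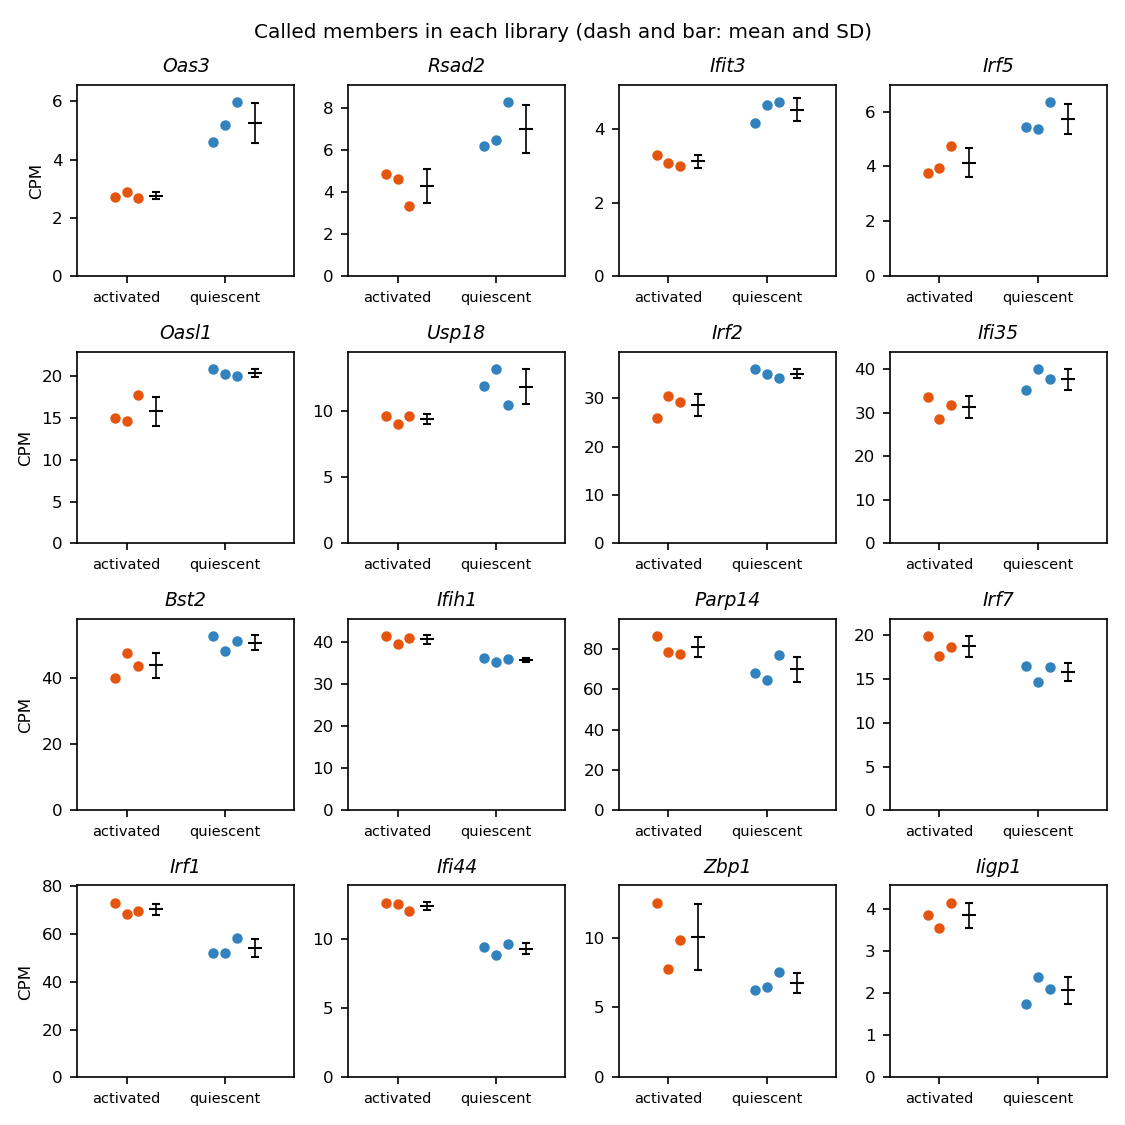
CPM of the 16 called members in each library, activated left and quiescent right, with the mean and SD beside the points (n = 3 each). In every panel the libraries of the states lie apart, though narrowly for Parp14, Bst2 and Zbp1. The panels show only members called on these same libraries, so this separation is nearly built in.

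The Oas family makes the oligoadenylate signal that activates the RNA-degrading enzyme RNase L, and its genes did not move together. Oas3 had 2.74, 2.9 and 2.68 CPM in the activated libraries, against 4.61, 5.19 and 5.98 CPM in the quiescent libraries. The activated libraries lay close together and below every quiescent library, and Oas3 fell to 0.527 times the quiescent level (log2 -0.92, SE 0.17, adjusted p = 0.0002). These levels rest on 49, 53 and 55 counts in activated and 82, 96 and 114 counts in quiescent libraries. Oas2, 3.22 kb from Oas3 on chromosome 5, had 5.48, 4.81 and 5.8 CPM in activated and 5.45, 4.32 and 3.94 CPM in quiescent libraries and did not pass (log2 0.23, SE 0.16, adjusted p = 0.25). The ratio of Oas3 to Oas2 counts was 0.5, 0.602 and 0.462 in the activated libraries and 0.845, 1.2 and 1.52 in the quiescent libraries. These ratios did not overlap, and an exact permutation test gave p = 0.1 (two-sided), the smallest that 3 against 3 libraries allow. Oas1a, of the same cluster, had 9.62, 10.6 and 10.3 CPM in activated and 10.3, 11 and 11.5 CPM in quiescent libraries (adjusted p = 0.45). Of its longest transcript 68.7% of 31-base words are also found in Oas1g, so its counts are uncertain.

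Oasl1, known in mice as an inhibitor of Irf7 translation, had 14.9, 14.7 and 17.8 CPM in the activated libraries, against 20.8, 20.3 and 19.9 CPM in the quiescent libraries. It fell (log2 -0.37, SE 0.09, adjusted p = 0.0029), without overlap. Its neighbour Oasl2 had 16.7, 16.5 and 15.8 CPM in activated and 18.9, 15.9 and 19.3 CPM in quiescent libraries, which overlapped, and did not pass (log2 -0.15, SE 0.09, adjusted p = 0.2). The Oasl1 to Oasl2 count ratios overlapped between states (exact permutation, two-sided p = 0.3), so a difference between the neighbours was not shown.

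The Ifit genes lie in 1 cluster on chromosome 19, with Ifit1 51.9 kb from Ifit3. Ifit3 had 3.3, 3.06 and 2.98 CPM in the activated libraries, against 4.16, 4.65 and 4.72 CPM in the quiescent libraries. The states did not overlap and it fell (log2 -0.54, SE 0.16, adjusted p = 0.011), with the call lost under DESeq2 (adjusted p = 0.078). Ifit3 shares 61.8% of its 31-base words with its copy Ifit3b, so reads of either may be split between them. Ifit2, 6.61 kb away and with no shared words, had 8.89, 7.6 and 8.63 CPM in activated and 7.64, 9.19 and 8.03 CPM in quiescent libraries (adjusted p = 0.93). Ifit1 had 5.09, 3.66 and 2.78 CPM in activated and 4.27, 3.89 and 5.41 CPM in quiescent libraries, a wide spread that overlapped (adjusted p = 0.38, interval of the fold 0.619 to 1.16). The Ifit2 to Ifit3 count ratio was 2.69, 2.48 and 2.9 in the activated libraries and 1.84, 1.98 and 1.7 in the quiescent libraries, without overlap and again at the smallest exact permutation p of 0.1. The Ifit1 to Ifit3 count ratio was 1.54, 1.2 and 0.934 in the activated libraries and 1.03, 0.837 and 1.14 in the quiescent libraries, which overlapped (exact permutation, two-sided p = 0.4). Ifit1 lies wholly (100%) within the span of Ifit1bl1 on the opposite strand, which had 58 counts over all libraries against 466 for Ifit1.

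Rsad2 encodes viperin, which makes a nucleotide that stops viral RNA synthesis, and Cmpk2, a nucleotide kinase gene 12.8 kb away, is often induced with it. Rsad2 had 4.86, 4.65 and 3.37 CPM in the activated libraries, against 6.18, 6.49 and 8.29 CPM in the quiescent libraries. It fell to 0.613 times the quiescent level (log2 -0.71, SE 0.17, adjusted p = 0.0025), with no activated library as high as any quiescent one. Cmpk2 had 4.7, 3.88 and 5.56 CPM in activated and 4.44, 5.51 and 4.62 CPM in quiescent libraries, overlapping, and did not pass (log2 -0.04, SE 0.17, adjusted p = 0.86). The Rsad2 to Cmpk2 count ratios overlapped between states (exact permutation, two-sided p = 0.2).

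The genes of ISG15 conjugation gave few counts for the modifier itself. Isg15, which encodes a ubiquitin-like modifier of proteins, had 0, 1 and 0 counts in activated and 0, 0 and 1 in quiescent libraries. It was not tested, and no fold is given. In the deposited coordinates 55.6% of its span overlaps LOC108168990, a long non-coding RNA gene on the opposite strand with 87 counts over all libraries. How reads in overlapping genes were counted is not stated there either, and the part of this overlap in the low count was not tested. Usp18, which removes ISG15 from proteins and restrains the type I receptor, had 9.56, 8.97 and 9.61 CPM in the activated libraries, against 11.8, 13.1 and 10.4 CPM in the quiescent libraries. It fell (log2 -0.33, SE 0.11, adjusted p = 0.019), and missed the threshold in DESeq2 (adjusted p = 0.085) and on dropping quiescent replicate 1 (0.052), quiescent replicate 2 (0.11) or activated replicate 2 (0.07).

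Other effectors changed by small amounts. Bst2, which encodes tetherin and holds budding virus at the cell surface, had 40.0, 47.4 and 43.6 CPM in the activated libraries, against 52.6, 48 and 51 CPM in the quiescent libraries. It fell (log2 -0.21, SE 0.06, adjusted p = 0.012), and the call ended without quiescent replicate 1 (adjusted p = 0.069). Ifi35, whose protein binds the interferon-induced protein Nmi, had 33.6, 28.7 and 31.8 CPM in the activated libraries, against 35.3, 40.0 and 37.6 CPM in the quiescent libraries and fell (log2 -0.26, SE 0.07, adjusted p = 0.0058). In both genes every activated library was below every quiescent one.

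Ifi44 had 12.6, 12.5 and 12 CPM in the activated libraries, against 9.44, 8.81 and 9.6 CPM in the quiescent libraries and rose 1.33-fold (log2 0.41, SE 0.10, adjusted p = 0.0024), with tight values in both states. Parp14, a mono-ADP-ribosyltransferase gene, had 86.5, 78.7 and 77.5 CPM in the activated libraries, against 68.3, 64.6 and 76.9 CPM in the quiescent libraries. It rose 1.16-fold (log2 0.21, SE 0.07, adjusted p = 0.016), by a narrow gap, and the call ended without quiescent replicate 1 (adjusted p = 0.07) or quiescent replicate 2 (0.08).

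Rtp4, a receptor transport protein gene, had 14.9, 16.8 and 17.7 CPM in activated and 15.7, 14.1 and 12.3 CPM in quiescent libraries and did not pass (log2 0.23, SE 0.10, adjusted p = 0.075), but passed without quiescent replicate 1 (adjusted p = 0.032) or activated replicate 1 (0.02). Xaf1, whose protein opposes an inhibitor of apoptosis, had 9.28, 8.8 and 7.12 CPM in activated and 10.6, 9.13 and 8.71 CPM in quiescent libraries and did not pass (adjusted p = 0.27). Mx1 and Mx2, whose intact forms encode antiviral GTPases, are both annotated as transcribed pseudogenes in the deposited table. They were at 1.33 and 1.04 CPM in activated and 1.03 and 0.736 CPM in quiescent CSCs. The Mx1 libraries did not overlap between states and those of Mx2 did, and neither gene passed (adjusted p = 0.29 and 0.25), and the 95% intervals of the fold, 0.865 to 1.92 and 0.861 to 2.3, were wide at 9 to 28 counts per library.

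Set side by side, both classes had a median near 0. Of 26 tested type I-linked genes 5 rose (19.2%) and 7 fell (26.9%), with a median log2 of -0.05. Over all genes 24.1% rose and 23.4% fell. Of 5 tested genes of the Gbp, Irg and Irf1 class 2 rose and 0 fell, with a median of 0.09. The members that rose in that class were Irf1 and Iigp1, and the 3 Gbp genes did not pass. A class of 5 genes does not allow a general statement, and the difference between the classes was not tested.

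Iigp1, an Irg gene of mice whose product attacks the vacuoles of intracellular parasites, had 3.86, 3.56 and 4.15 CPM in the activated libraries, against 1.74, 2.38 and 2.1 CPM in the quiescent libraries. The activated libraries lay well above the quiescent ones, on 69, 65 and 85 counts in activated and 31, 44 and 40 counts in quiescent libraries, and Iigp1 rose 1.86-fold (log2 0.89, SE 0.19, adjusted p = 0.00096). Igtp, another Irg gene, had 1, 4 and 3 counts in activated and 4, 3 and 7 in quiescent libraries and was not tested. It shares 16.4% of its 31-base words with Irgm2, and Iigp1 shares 8.80% with Gm4951.

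Gbp2, Gbp3 and Gbp7 lie in 1 cluster on chromosome 3, and their proteins gather on pathogen membranes. Gbp2 had 40.1, 35.9 and 34.4 CPM in the activated libraries, against 37.9, 41.3 and 39.2 CPM in the quiescent libraries. These overlapped and it did not pass (log2 -0.10, SE 0.07, adjusted p = 0.22), though it was called lower without activated replicate 1 (adjusted p = 0.041). Gbp3 had 12.2, 11.8 and 12.5 CPM in activated and 11.1, 11.9 and 11.9 CPM in quiescent libraries, and Gbp7 had 14.7, 12.2 and 14.1 CPM in activated and 12.9, 12.6 and 12.9 CPM in quiescent libraries. Neither passed, with 95% intervals of the fold of 0.91 to 1.2 and 0.925 to 1.23. The Gbp2 to Gbp3 count ratio was 3.289, 3.037 and 2.747 in the activated libraries and 3.409, 3.457 and 3.291 in the quiescent libraries, and the Gbp2 to Gbp7 ratio was 2.73, 2.94 and 2.45 in the activated libraries and 2.95, 3.27 and 3.04 in the quiescent libraries. Both ratios were lower in every activated library than in any quiescent one, by very narrow gaps, and were at the smallest exact permutation p of 0.1 (two-sided).

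**Figure D3:**
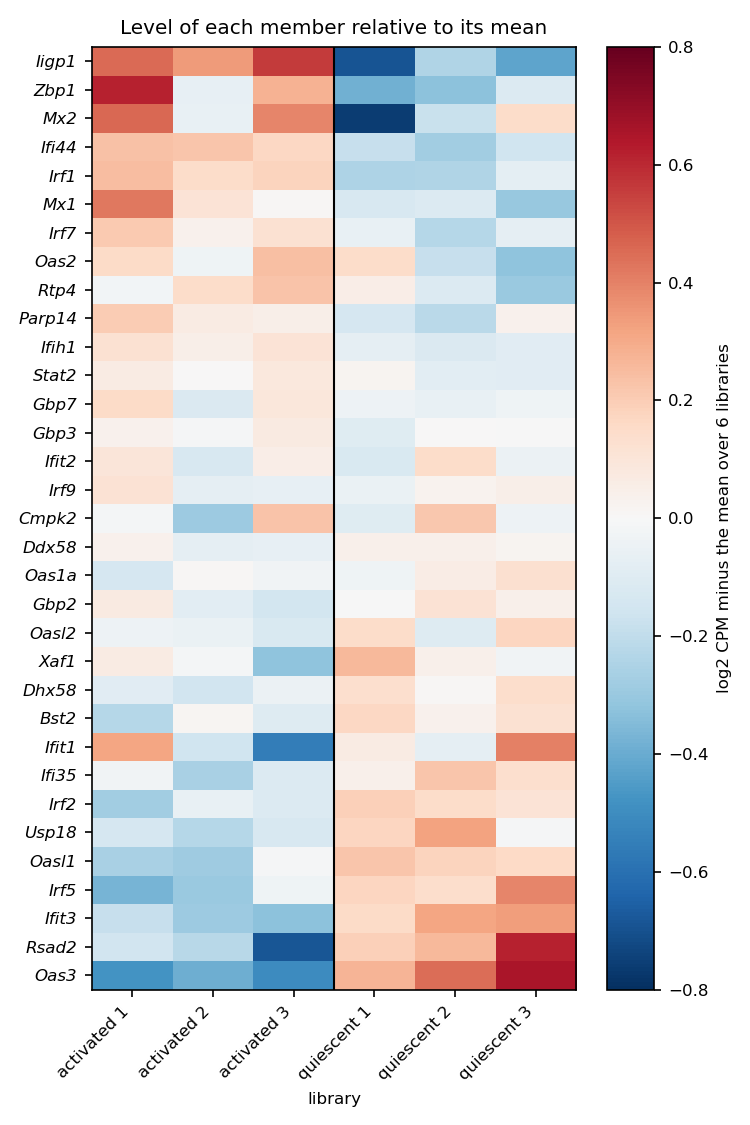
Log2 CPM of each tested member minus its mean over the 6 libraries, with activated libraries left of the line and quiescent ones right; red is above and blue below the mean. Rows run from Iigp1 at the top to Oas3 at the bottom, and the middle rows show no split between states.

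Per kilobase of the deposited gene length (FPKM), members differed widely in level. Bst2 was highest, at 56.8 ± 4.77 FPKM in activated and 65.7 ± 3.04 FPKM in quiescent CSCs. Ifi35 followed in activated CSCs, at 23.1 ± 1.86 FPKM in activated and 27.7 ± 1.75 FPKM in quiescent CSCs, ahead of Irf1 at 20.9 ± 0.73 FPKM in activated and 16.1 ± 1.12 FPKM in quiescent CSCs and Ddx58 at 20.7 ± 0.879 FPKM in activated and 21.7 ± 0.204 FPKM in quiescent CSCs. Irf1 and Ddx58 differed by less than their SDs in activated CSCs, while in quiescent CSCs Ddx58 stood above Irf1, which lay beside Gbp2 at 15 ± 1.2 FPKM in activated and 16.1 ± 0.694 FPKM in quiescent CSCs. Among tested members Mx2 was lowest, at 0.429 ± 0.0788 FPKM in activated and 0.304 ± 0.091 FPKM in quiescent CSCs, in activated CSCs within the SD of Mx1, which was at 0.494 ± 0.0769 FPKM in activated and 0.382 ± 0.0278 FPKM in quiescent CSCs, and Oas3 stood just above them in activated CSCs, at 0.588 ± 0.0237 FPKM in activated and 1.11 ± 0.146 FPKM in quiescent CSCs.

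The promoters of a few of these genes are shown so that the letters can be set beside the values. They are the 3 genes that fell most and 3 others not chosen by a ranking. Ifit1 lies in the cluster of Ifit3 and did not pass, Irf1 rose, and Gbp7 is a Gbp gene that did not pass. Each sequence is from RefSeq (GRCm38.p6), 5′ to 3′ along the gene, with 250 bases before the start site and 50 after it. Capitals mark the ISRE core, GAAANNGAAA on either strand, or the GAS core, TTCNNNGAA.
Oas3 (chr5:120777610-120777909, minus strand): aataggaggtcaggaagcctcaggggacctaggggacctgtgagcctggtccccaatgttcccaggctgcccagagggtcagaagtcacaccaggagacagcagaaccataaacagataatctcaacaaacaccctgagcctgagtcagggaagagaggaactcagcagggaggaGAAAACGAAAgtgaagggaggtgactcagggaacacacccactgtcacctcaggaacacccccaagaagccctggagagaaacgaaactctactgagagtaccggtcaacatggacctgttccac
Rsad2 (chr12:26456403-26456702, minus strand): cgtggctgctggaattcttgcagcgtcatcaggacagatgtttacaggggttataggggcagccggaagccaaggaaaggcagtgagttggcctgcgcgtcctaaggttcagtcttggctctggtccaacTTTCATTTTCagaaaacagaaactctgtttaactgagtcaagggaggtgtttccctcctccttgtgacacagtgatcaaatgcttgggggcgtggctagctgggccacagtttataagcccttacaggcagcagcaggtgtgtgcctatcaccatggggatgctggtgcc
Ifit3 (chr19:34583279-34583578, plus strand): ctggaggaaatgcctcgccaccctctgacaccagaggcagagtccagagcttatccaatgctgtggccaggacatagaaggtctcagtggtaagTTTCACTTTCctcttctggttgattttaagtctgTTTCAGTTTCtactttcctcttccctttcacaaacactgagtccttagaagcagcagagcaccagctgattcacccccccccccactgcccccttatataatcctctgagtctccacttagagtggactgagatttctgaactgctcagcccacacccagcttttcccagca
Ifit1 (chr19:34640639-34640938, plus strand): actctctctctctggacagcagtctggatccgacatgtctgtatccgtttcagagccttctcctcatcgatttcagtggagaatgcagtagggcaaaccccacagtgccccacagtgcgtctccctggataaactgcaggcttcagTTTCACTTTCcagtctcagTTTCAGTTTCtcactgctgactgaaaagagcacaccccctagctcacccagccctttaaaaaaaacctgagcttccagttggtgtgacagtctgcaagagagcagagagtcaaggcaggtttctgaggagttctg
Irf1 (chr11:53769764-53770063, plus strand): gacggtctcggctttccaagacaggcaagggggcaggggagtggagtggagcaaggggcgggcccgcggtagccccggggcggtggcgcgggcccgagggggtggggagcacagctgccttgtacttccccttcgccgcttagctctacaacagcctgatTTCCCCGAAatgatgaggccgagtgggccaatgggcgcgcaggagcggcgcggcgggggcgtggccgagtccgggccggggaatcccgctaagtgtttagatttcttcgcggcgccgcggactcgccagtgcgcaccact
Gbp7 (chr3:142530086-142530385, plus strand): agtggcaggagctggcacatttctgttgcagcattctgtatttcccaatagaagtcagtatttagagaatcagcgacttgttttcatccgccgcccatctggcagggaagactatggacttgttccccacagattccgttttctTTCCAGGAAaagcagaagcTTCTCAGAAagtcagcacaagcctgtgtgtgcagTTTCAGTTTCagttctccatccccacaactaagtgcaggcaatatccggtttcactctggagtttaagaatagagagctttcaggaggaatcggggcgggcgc

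Oas3 and Rsad2 each held 1 ISRE core, ending 65 and 110 bases before the start site, and both genes fell. Ifit3 and Ifit1 each held 2 such cores, and Ifit3 fell while Ifit1 did not pass. The first Irf1 promoter held a GAS core 81 bases before the start and no ISRE core. Gbp7 held 2 GAS cores and 1 ISRE core. No ISRE core overlapped a GAS core in these 6 promoters. The 6 do not stand for all members. Ifi44, which rose more than Irf1, held neither core. Irf7, which rose, held neither, and Ifih1, which rose, held 1 ISRE core. Gbp2 held 1 ISRE core and the first Gbp3 promoter held 2, with no GAS core in either gene.

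Of the 35 members 26 had a promoter in the table. An ISRE core was in the promoter of 15 of the 26 (57.7%), against 3.99% of 27025 genes in the table, and a GAS core in 8 (30.8%), against 9.55%. Among members that fell, 5 of 8 with a promoter held an ISRE core, among those that rose 1 of 4, and among those that did not pass 7 of 12. A GAS core was in 3 of the 8 that fell, 1 of the 4 that rose and 3 of the 12 that did not pass. A match of letters is a description and not a site of binding.

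A further list of type I-linked targets held calls in both directions, as all genes did. Of 37 tested genes 11 rose and 5 fell (43.2%, against 47.5% of all genes), with a median log2 of 0.03. Parp9 and Dtx3l, whose proteins form a complex in ADP-ribosylation and DNA repair, both rose. Parp9 was at 96.3 ± 6.59 CPM in activated and 52.2 ± 3.56 CPM in quiescent CSCs (log2 0.88, SE 0.06, adjusted p = 4.6e-09), and Dtx3l at 73.2 ± 1.98 CPM in activated and 43.4 ± 0.537 CPM in quiescent CSCs (log2 0.75, SE 0.05, adjusted p = 1.8e-09). Ifitm3, which blocks virus entry, was at 292 ± 19.4 CPM in activated and 175 ± 16.5 CPM in quiescent CSCs and rose (adjusted p = 8.3e-05). Tor3a, an interferon-induced ATPase gene, fell, at 19.4, 19.4 and 21.1 CPM in activated and 38, 40.3 and 38.8 CPM in quiescent libraries (log2 -0.97, SE 0.07, adjusted p = 4.1e-09). Tdrd7 and Pyhin1 fell as well (adjusted p = 6.9e-05 and 0.0022).

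Of 17 tested further genes linked to interferon gamma 4 rose and 2 fell (35.3%, against 47.5% of all genes). Their median was 0.03, and 17 more were too low to test. Irgm1, an Irg gene, rose 1.34-fold (log2 0.43, SE 0.12, adjusted p = 0.0067), and Ciita, the activator of class II antigen presentation, rose 1.87-fold (log2 0.90, SE 0.20, adjusted p = 0.0012) at a low level, 3.21 ± 0.0833 CPM in activated and 1.71 ± 0.243 CPM in quiescent CSCs. The proteasome genes Psmb10 and Psme1 rose 1.29-fold and 1.18-fold (adjusted p = 0.00095 and 0.00056). Cxcl10, a chemokine gene that both kinds of interferon induce, fell, with 11, 9 and 10 counts in activated and 25, 16 and 30 in quiescent libraries (log2 -1.26, SE 0.34, adjusted p = 0.0058). Gbp5 fell, on 9, 9 and 8 counts in activated and 26, 15 and 18 counts in quiescent libraries (log2 -1.21, SE 0.37, adjusted p = 0.013). It missed the threshold in DESeq2 (adjusted p = 0.087) and on dropping quiescent replicate 1 (0.09) or activated replicate 3 (0.05, at the threshold).

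Genes that restrain the response gave 5 higher and 3 lower of 15 (53.3%, against 47.5% of all genes). Samhd1, which breaks down deoxynucleotides, rose 2.19-fold, at 67.1 ± 2.05 CPM in activated and 30.7 ± 1.28 CPM in quiescent CSCs (log2 1.13, SE 0.06, adjusted p = 3e-11). Ptpn2, a phosphatase that acts on Jak kinases, rose 1.62-fold and Nlrx1, a mitochondrial regulator of Mavs, 1.74-fold (adjusted p = 6.1e-09 and 1e-05). Pias4, a SUMO ligase gene, fell to 0.749 times the quiescent level (adjusted p = 4e-05). The phosphatase gene Ptpn11 and the NF-kB inhibitor gene Tnfaip3 fell by less, to 0.869 and 0.874 times (adjusted p = 0.00041 and 0.0029).

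**Figure D4:**
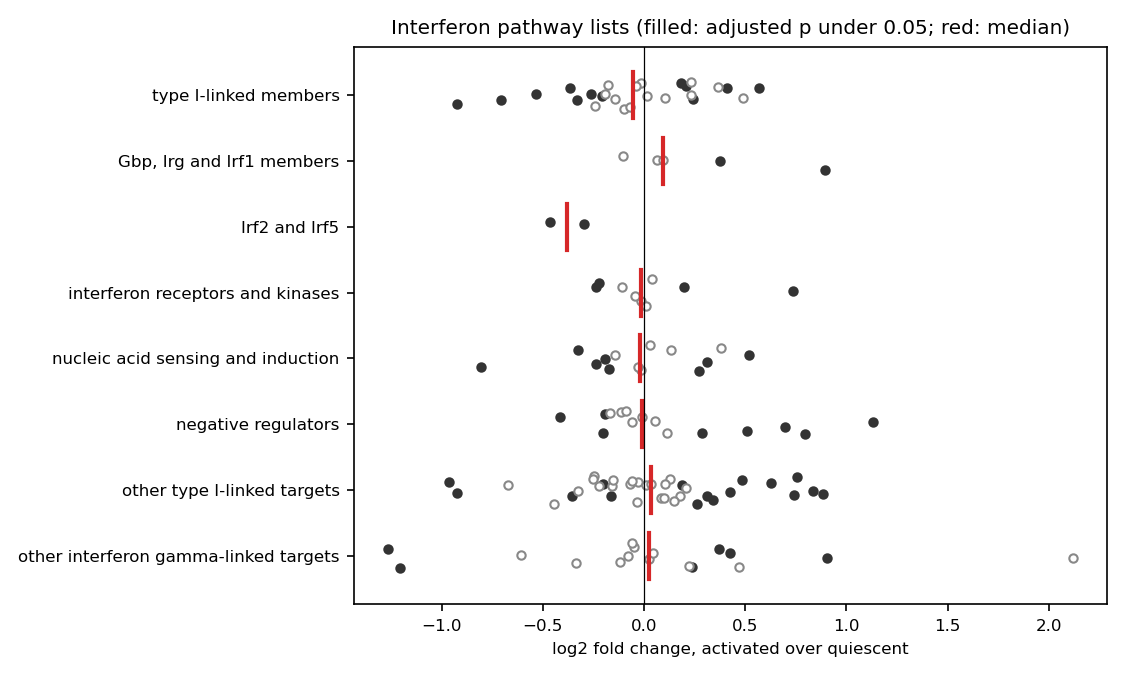
Log2 fold change, activated over quiescent CSCs, of the tested genes of each class and pathway list; filled points passed the test and red lines are medians. Every list holds genes on both sides of zero apart from Irf2 and Irf5, and the medians of the other lists lie between -0.05 and 0.09.

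Some listed markers of other cells moved beside these genes. Of 12 leukocyte and macrophage markers 8 rose and 1 fell (75%, against 47.5% of all genes). Their summed level was 1172 to 1185 CPM in activated and 793 to 848 CPM in quiescent libraries, most of it from Cd14 and Lyz2. Cd14 averaged 701 CPM in activated and 440 CPM in quiescent CSCs. Csf1r, the macrophage receptor, was among those that rose (log2 0.45, SE 0.10, adjusted p = 0.00089). Ptprc, the pan-leukocyte gene, lay far below Cd14, at 7.12 ± 0.718 CPM in activated and 5.72 ± 0.502 CPM in quiescent CSCs. Ptprc did not pass (adjusted p = 0.065, and 0.026 without activated replicate 1). The macrophage marker Cd68 was the one that fell (log2 -0.18, adjusted p = 0.027), and Adgre1 did not pass (adjusted p = 0.76). Cd68 and Adgre1 were named after their values were seen. Of 9 fibroblast markers 7 rose (77.8%, against 24.1% of all genes). Their summed level was 1423 to 1548 CPM in activated and 787 to 810 CPM in quiescent libraries, most of it from Col1a1, Col1a2 and Col3a1. Pdgfra and Pdpn did not pass (adjusted p = 0.67 and 0.94). Epithelial markers, of which 4 of 10 rose and 3 fell, summed to 7876 to 8127 CPM in activated and 8358 to 8699 CPM in quiescent libraries, most of it from Krt8, Krt18, Epcam and Cdh1. Markers of T and NK cells summed to at most 1.07 CPM in activated and 1.12 CPM in quiescent libraries, and 5 of 12 had no count. Of 9 dendritic cell markers 5 were tested, with 1 higher (Itgax) and 2 lower (Bst2 and Flt3), 60% against 47.5% of all genes. Their summed level was 150.4 to 162.4 CPM in activated and 151.5 to 156 CPM in quiescent libraries, most of it from Tcf4, Itgax and Bst2. The markers Siglech, Ccr9, Xcr1 and Clec9a were too low to test. Itgax had 45.5, 50.9 and 48.9 CPM in activated and 40.0, 39.1 and 41.6 CPM in quiescent libraries (adjusted p = 0.0011), and Flt3 had 4 counts over the activated and 50 over the quiescent libraries (adjusted p = 0.00025); both were named after their values were seen. Siglech, which marks plasmacytoid dendritic cells, a main source of type I interferon, had 0 counts in all libraries. Bst2 itself is also listed as a marker of those cells. B cell markers summed to at most 0.112 CPM in activated and 0.393 CPM in quiescent libraries. The part of macrophages or fibroblasts in the calls above was not tested.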

How the data were processed

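RNA sequencing of 3 activated and 3 quiescent CSC libraries was analysed from the deposited table of raw read counts per gene, with gene name, position and gene length in bases as given by the authors. Per the submitters' processing notes, the tools were featureCounts 1.5.0-p3, StringTie 1.3.3b and HISAT2 2.0.5; their roles, the strand setting and the rule for reads in overlapping genes are not given in the sources used here. Library totals were 17785331 to 20510377 counts. No 2 libraries were identical.

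Genes were filtered with edgeR's filterByExpr, scaled by TMM and tested with its quasi-likelihood test (edgeR 4.0.16, R 4.3.3) over 15223 genes, with Benjamini-Hochberg adjustment and a threshold of 0.05. The test was first tried on simulated counts with far fewer changed genes and a fixed spread between libraries, so that trial does not bear on the calls made here. CPM is TMM-scaled, and FPKM is CPM per kilobase of the deposited gene length. Alternatives were other scalings, filters and thresholds, DESeq2 1.42.0, limma-voom (limma 3.58.1), a fit blocked on replicate number, and fits that drop 1 library each. Count ratios of neighbouring genes used exact permutation tests over libraries. The floor for low counts covers counting error only. Intervals of the fold come from the quasi-likelihood fit and include the spread between libraries. Promoters and 31-base words came from RefSeq and GENCODE tables of the GRCm38 build.

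All 35 members are named. Of each pathway list the genes past the threshold are named where there are 6 or fewer, otherwise the 3 with the smallest adjusted p in each direction. Interferon ligands with a count, Ifnar1, Ifnar2, Ifngr1, Ifngr2, Jak1, Jak2, Tyk2 and Irf3 are also named. The receptor and kinase list is given without a gene that is not reported here. The members and lists were chosen with earlier results of these data known.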

Additional observations from a re-analysis of the deposited data

How the results depend on the processing

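Depth limits the members with few counts (Isg15, Igtp, Mx1, Mx2 and the ligands), and 3 libraries a state limit the exact tests to p = 0.1. No called member changed sign under the 16 alternatives, and 9 of the 16 called members kept their call under all of them: Irf1, Ifi44, Zbp1 and Iigp1 among those higher, and Oas3, Rsad2, Oasl1, Irf2 and Ifi35 among those lower in activated CSCs. DESeq2 called 5 members higher and 6 lower, with 3 type I-linked genes higher against 5 with edgeR, and 6060 genes in all against 7236. At an adjusted p under 0.01, 4 members were higher and 5 lower, of which 2 and 4 were type I-linked. Leaving out 1 library at a time gave 5 to 7 members higher and 7 to 9 lower. It gave 3 to 5 type I-linked genes higher (3 without quiescent replicate 2) and 5 to 7 lower. In the Gbp, Irg and Irf1 class 2 were higher each time and 0 to 1 lower, the 1 being Gbp2 without activated replicate 1. All genes called ranged from 6387 to 7359. With Irf2 and Irf5 counted as type I-linked, 9 of that class were lower. With a replicate block 7042 genes were called and the members stayed at 7 higher and 9 lower. Libraries with the same number deviated from their group means with correlations of 0.008, -0.03 and 0.044. Libraries of unlike number gave correlations of -0.047 to 0.04. No pairing by number was seen, though such correlations could miss a weak one.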

Other observations

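Tap2, a peptide transporter gene of class I antigen presentation and 1 of the further genes linked to interferon gamma, was singled out after its values were seen. It had 105, 104 and 17 counts in the activated libraries, against 14, 19 and 19 counts in the quiescent libraries. Activated replicate 3 thus lay within the range of the quiescent libraries, and Tap2 did not pass (log2 2.12, adjusted p = 0.12 with edgeR's quasi-likelihood test). B2m, the light chain of the class I complex, averaged 686 CPM in activated and 665 CPM in quiescent CSCs.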
